A study of Mus musculus with 12 samples.

Results

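Dlk1-Sca1+ and Dlk1+Sca1+ cells are the 2 pre-adipocyte populations of the neonatal mouse dermis that carry Sca1, a surface antigen of mesenchymal progenitors, and that a flow sort separates by surface Dlk1. Expression was compared between them by taking every array labelled Dlk1-Sca1+ and every array labelled Dlk1+Sca1+, 6 of the 12 arrays of the series, with 3 labelled biological replicates each. Fibroblasts came from the back skin of wild-type mice at postnatal day 2, and the study describes sorting fluorescent cells from mice with a green reporter at the Pdgfra gene, which marks fibroblasts. No gene was deleted: "Dlk1-" is a sort gate, and all 4 sorted populations share genotype, age, tissue and digestion with dispase, trypsin and collagenase. The other populations were CD26+ cells, which the study calls papillary and gated on CD26 without Sca1, and Dlk1+Sca1- cells, which it calls reticular, with 3 arrays each.

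One Dlk1-Sca1+ array was excluded in the study's text for its high Dlk1 and its likeness to Dlk1+Sca1+, without a number. Replicate 3 had the highest Dlk1 of its group and was taken to be that array. Tests therefore used Dlk1-Sca1+ replicates 1 and 2, and replicate 3 is given beside them and in fits of all 12 arrays. Leaving out an array for its likeness to the other population widens the separation between them, so counts of calls are also given with all 12 arrays.

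Dermal fibroblasts of the newborn mouse fall into an upper, papillary lineage, which lies under the epidermis and can take part in hair follicle formation, and a lower lineage that gives rise to reticular fibroblasts and to the adipocytes of the dermal fat layer. Dlk1 is a transmembrane inhibitor of fat cell formation, and its expression falls as preadipocytes mature. Fatty acid binding protein 4 (Fabp4), the nuclear receptor Pparg and the fatty acid carrier Cd36 mark cells that have entered the adipocyte programme. Entpd1 encodes CD39, an ectoenzyme that degrades extracellular ATP and ADP.

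The values are log2 expression values, 1 per gene and array, and a difference of 1 is a doubling on this scale. Array medians lay between 5.38 and 5.51, and Pearson's r between arrays across genes was 0.958 to 0.983. None of 6 genes of fibroblast identity passed the test between the Sca1+ populations, with log2 differences of -0.18 (Col1a1) to 0.43 (Lum, 95% interval 0.11 to 0.75). Pdgfra read 9.39 and 9.50 in Dlk1-Sca1+ replicates 1 and 2, 8.79 in replicate 3, and 8.99, 9.23 and 8.88 in Dlk1+Sca1+ (log2 0.41, 95% interval 0.09 to 0.74, adjusted p = 0.286). Ly6a, the gene of Sca1, was not analysed here, so that side of the gate was not checked. Xist lay between 11.62 and 12.08 on all 12 arrays. P-values measure the spread between arrays that the labels call biological replicates.

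The gate was visible in the gene it used. Dlk1 (chromosome 12, 109452485 to 109463336, mm10) read 8.09 and 8.32 in Dlk1-Sca1+ replicates 1 and 2, 8.69 in replicate 3, and 10.07, 10.23 and 10.09 in Dlk1+Sca1+. Replicate 3 was the Dlk1-Sca1+ array nearest to Dlk1+Sca1+, yet it stayed below that population's mean (log2 difference -1.44). CD26+ cells, which were not gated on Dlk1, read 8.49, 8.69 and 8.51, so replicate 3 was level with them.

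Between the Sca1+ populations, 263 of 22180 genes passed an adjusted p of 0.05 (1.19%), 144 of them higher in Dlk1-Sca1+ (0.649%) and 119 lower (0.537%). All 263 had both Dlk1-Sca1+ arrays above, or both below, all 3 Dlk1+Sca1+ arrays, as did 26.5% of all genes. With all 12 arrays the count was 88, of which 82 were among the 263. It was 83 without either Dlk1-Sca1+ replicate 1 or replicate 2, and 148, 170 and 147 without Dlk1+Sca1+ replicates 1, 2 and 3. The genes that rose included surface and signalling genes of the upper dermis, Wnt pathway genes and mitotic genes. Those that fell included imprinted growth genes, matricellular genes and secreted immune factors, while no gene of the adipocyte lists passed the test in either direction.

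**Figure D1:**
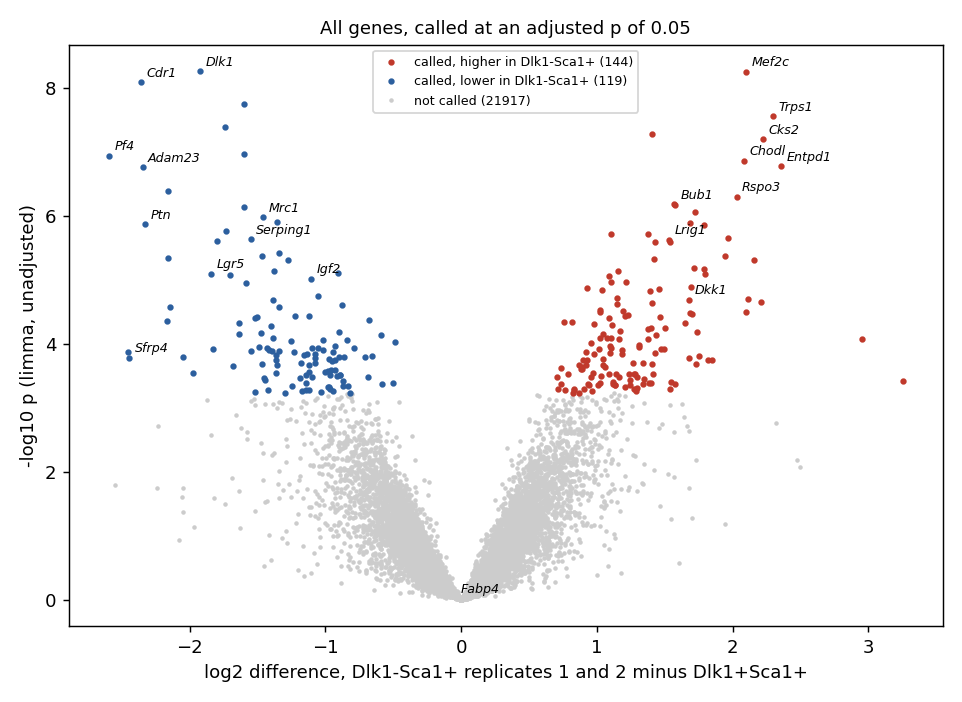
Each point is a gene, with the log2 difference (Dlk1-Sca1+ replicates 1 and 2 minus Dlk1+Sca1+) on the x axis and -log10 of the unadjusted limma p on the y axis. Red points are the 144 genes called higher, blue points the 119 called lower, and grey points the genes not called. Entpd1, Trps1 and Mef2c are among the genes labelled on the right and Pf4, Cdr1 and Adam23 among those labelled on the left.

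Entpd1 (chromosome 19, 40612366 to 40741602) had the largest rise among genes named by rule. It read 8.05 and 8.19 in Dlk1-Sca1+ replicates 1 and 2, 6.45 in replicate 3, and 5.78, 5.80 and 5.69 in Dlk1+Sca1+, 5.14-fold higher in Dlk1-Sca1+ replicates 1 and 2 (log2 2.36 ± 0.24 SE, adjusted p = 0.000299). No array of either population overlapped, replicate 3 included. The call held in each of the 11 fits that left out 1 array and ended with all 12 arrays (log2 1.80, adjusted p = 0.0627). CD26+ cells read 8.57, 8.38 and 8.39 and Dlk1+Sca1- cells 7.37, 7.19 and 6.44, so Dlk1+Sca1+ cells had the lowest Entpd1 of the 4 populations. Of the called genes, only Snord61 (log2 3.26) and Mir5098 (log2 2.96), which the naming rule passes over as small RNA genes, rose by more.

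Markers of the upper dermis were the list with the highest share of members called. Of 17 measured, 7 rose, none fell, and the median log2 difference was 0.81 against -0.01 over all genes, with 13 of 17 members above 0. Over all genes, 10669 of 22180 lay above 0 and 11511 below, the shares to set beside this list and those that follow. The called members were Chodl, Lrig1, Sytl2, Apcdd1, Dscam, Efnb2 and Crabp1. The list was drawn up with earlier results of these data known, so its share of calls is a description. The fit of all 12 arrays called 3 members, with a median of 0.55, and without Dlk1-Sca1+ replicates 1 and 2 in turn 5 and 3 were called.

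Lrig1, a transmembrane protein that dampens growth factor receptors and marks the upper fibroblast lineage, read 9.96 and 9.90 in Dlk1-Sca1+ replicates 1 and 2, 9.19 in replicate 3, and 8.30, 8.76 and 8.12 in Dlk1+Sca1+ (log2 1.53 ± 0.19 SE, adjusted p = 0.00174). Chodl, a membrane protein with a C-type lectin domain, read 7.77 and 7.68 in Dlk1-Sca1+ replicates 1 and 2, 6.71 in replicate 3, and 5.78, 5.38 and 5.77 in Dlk1+Sca1+ (log2 2.08 ± 0.20 SE, adjusted p = 0.000279). For both genes replicate 3 lay between the populations, above every Dlk1+Sca1+ array. Sytl2, a Rab27 effector of vesicle transport, read 7.89 and 8.07 in Dlk1-Sca1+ replicates 1 and 2, 7.03 in replicate 3, and 6.26, 5.96 and 5.90 in Dlk1+Sca1+ (log2 1.94 ± 0.26 SE, adjusted p = 0.0026). Lrig1, Chodl and Sytl2 passed the test under every alternative run, all 12 arrays included. Crabp1, a binding protein of retinoic acid, rose 3.38-fold (adjusted p = 0.0232), a call lost without Dlk1-Sca1+ replicate 1 (adjusted p = 0.151) or replicate 2 (adjusted p = 0.154). Its replicate 3, at 6.38, lay within the 5.72 to 6.79 of Dlk1+Sca1+, and with all 12 arrays the difference was log2 1.16 and not called (adjusted p = 0.417). CD26 itself, encoded by Dpp4 and the papillary gate marker, read 9.97 and 10.13 in Dlk1-Sca1+ replicates 1 and 2, 9.37 in replicate 3, and 9.17, 9.40 and 9.10 in Dlk1+Sca1+ and did not pass the test (log2 0.83 ± 0.29 SE, adjusted p = 0.265).

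**Figure D2:**
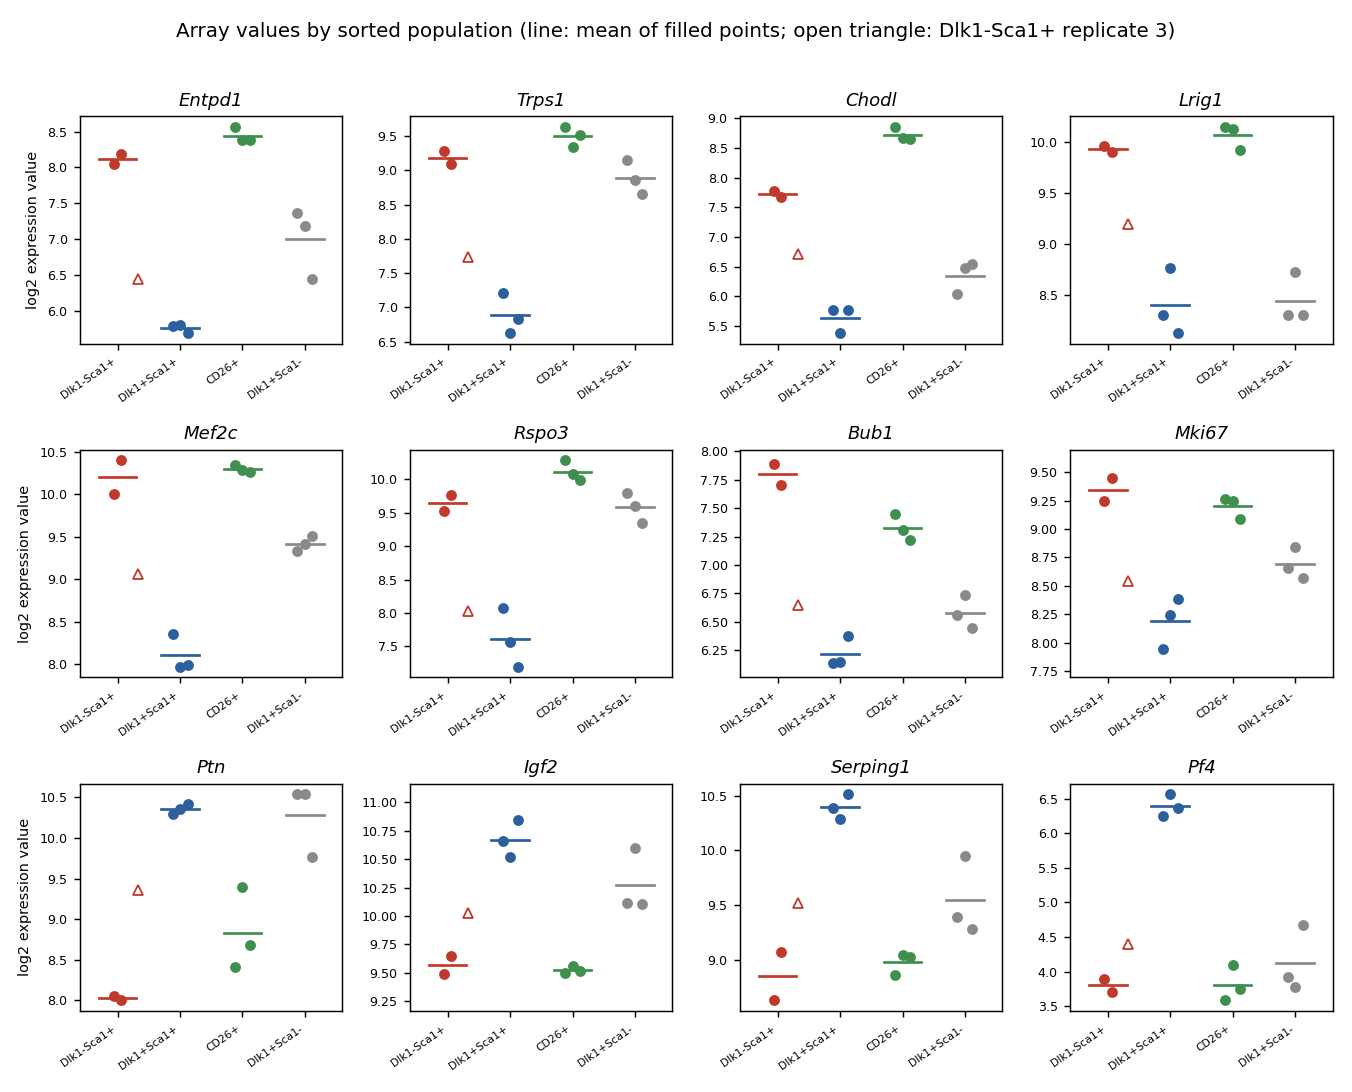
Log2 expression value (y axis) on each array for 12 genes, by sorted population (x axis), with filled points for the arrays fitted, a line at their mean and an open triangle for Dlk1-Sca1+ replicate 3. In Dlk1-Sca1+ replicates 1 and 2 the genes of the top and middle rows lie above Dlk1+Sca1+ and those of the bottom row below it, and the triangle for Entpd1 sits at 6.45, between 8.05 and 5.80.

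Transcription factors and adhesion genes were among the other large rises. Mef2c, a MADS-box transcription factor, had the lowest p of the rises: 10.01 and 10.40 in Dlk1-Sca1+ replicates 1 and 2, 9.06 in replicate 3, and 8.36, 7.97 and 7.99 in Dlk1+Sca1+ (log2 2.10 ± 0.16 SE, adjusted p = 6.06e-05). Cntn4, a neural adhesion molecule of the contactin family, rose 3.90-fold (adjusted p = 0.00174), and it passed the test under every alternative, as Mef2c did. Itga4, the integrin alpha-4 chain, rose 3.47-fold (adjusted p = 0.00387), a call lost without Dlk1-Sca1+ replicate 2 (adjusted p = 0.0661) and with all 12 arrays (adjusted p = 0.0952). Ndnf, a secreted neurotrophic factor, read 8.07 and 7.98 in Dlk1-Sca1+ replicates 1 and 2, 6.17 in replicate 3, and 6.17, 5.63 and 5.82 in Dlk1+Sca1+ (log2 2.15 ± 0.29 SE, adjusted p = 0.00278). Its replicate 3 was level with the highest Dlk1+Sca1+ array, and the call ended with all 12 arrays (adjusted p = 0.203). Prss35, a serine protease-like protein, rose 4.34-fold (adjusted p = 0.00723), with a call lost without Dlk1-Sca1+ replicate 2 (adjusted p = 0.102). Fgfr4 rose 3.54-fold (adjusted p = 0.0247), a call that ended in 4 of the 11 fits (highest adjusted p = 0.254, without Dlk1-Sca1+ replicate 2) and with all 12 arrays (adjusted p = 0.199), and Lrrc8b, a subunit of volume-regulated anion channels, rose 4.62-fold (adjusted p = 0.00775), a call lost without Dlk1-Sca1+ replicate 1 (adjusted p = 0.0877) or replicate 2 (adjusted p = 0.0566).

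Wnt ligands act through Frizzled receptors and beta-catenin, and cells that receive the signal raise feedback inhibitors. Of 21 targets and feedback inhibitors, 4 rose (Trps1, Dkk1, Apcdd1, Wif1) and 2 fell (Lgr5, Tcf7l2), with a median log2 difference of 0.61. When all 12 arrays were fitted 2 rose and 1 fell, and without Dlk1-Sca1+ replicate 2 only 1 rose and 1 fell. Trps1, a GATA-type repressor needed for hair follicles, read 9.29 and 9.09 in Dlk1-Sca1+ replicates 1 and 2, 7.73 in replicate 3, and 7.21, 6.62 and 6.83 in Dlk1+Sca1+ (log2 2.30 ± 0.20 SE, adjusted p = 0.000125), and passed under every alternative. Dkk1, a secreted antagonist of the Wnt co-receptors, read 7.39 and 7.96 in Dlk1-Sca1+ replicates 1 and 2, 6.98 in replicate 3, and 6.02, 6.04 and 5.92 in Dlk1+Sca1+ (log2 1.68 ± 0.26 SE, adjusted p = 0.00723). The Dkk1 call was lost without Dlk1-Sca1+ replicate 2 (adjusted p = 0.102) and held with all 12 arrays (adjusted p = 0.0265). Apcdd1, a membrane-bound Wnt inhibitor, rose 2.65-fold (adjusted p = 0.00783), a call lost without Dlk1-Sca1+ replicate 1 (adjusted p = 0.0824), without replicate 2 (adjusted p = 0.0691) and with all 12 arrays (adjusted p = 0.144).

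Axin2, the target gene most used as a readout of the pathway, read 7.98 and 8.21 in Dlk1-Sca1+ replicates 1 and 2, 7.24 in replicate 3, and 7.28, 7.31 and 7.24 in Dlk1+Sca1+ and did not pass (log2 0.82 ± 0.22 SE, adjusted p = 0.112). Lef1, which partners beta-catenin on DNA, did not pass either (log2 1.14 ± 0.30 SE, adjusted p = 0.112). Tcf4, which the study names beside Axin2 and Lef1 as a Wnt pathway gene, passed (log2 1.09 ± 0.155 SE, adjusted p = 0.00402). It read 10.54 and 10.63 in Dlk1-Sca1+ replicates 1 and 2, 9.60 in replicate 3, and 9.61, 9.38 and 9.49 in Dlk1+Sca1+. With all 12 arrays the Tcf4 call ended (adjusted p = 0.207). Lgr5, the R-spondin receptor and a target gene in epithelial stem cells, went the other way: 7.84 and 7.89 in Dlk1-Sca1+ replicates 1 and 2, 8.32 in replicate 3, and 9.93, 9.60 and 9.60 in Dlk1+Sca1+ (log2 -1.85 ± 0.26 SE, adjusted p = 0.00387). All 3 Dlk1-Sca1+ arrays were thus over 1 log2 unit below Dlk1+Sca1+, and the Lgr5 call held with all 12 arrays (adjusted p = 0.0106) but not without Dlk1-Sca1+ replicate 1 (adjusted p = 0.0541).

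Among 51 Wnt ligands, receptors and secreted modulators, 2 rose (Rspo3, Dkk2) and 2 fell (Fzd4, Sfrp4), with a median of 0.01, and 0 were called with all 12 arrays. Rspo3, a secreted potentiator of Wnt signals and ligand of Lgr5, read 9.53 and 9.76 in Dlk1-Sca1+ replicates 1 and 2, 8.03 in replicate 3, and 8.08, 7.57 and 7.20 in Dlk1+Sca1+ (log2 2.03 ± 0.22 SE, adjusted p = 0.000749). Here replicate 3 fell inside the Dlk1+Sca1+ range, and with all 12 arrays the call ended (adjusted p = 0.129). Sfrp4, a decoy receptor that binds Wnt, fell to 6.79 and 6.5 in Dlk1-Sca1+ replicates 1 and 2 and 7.57 in replicate 3, against 9.28, 8.86 and 9.12 in Dlk1+Sca1+ (log2 -2.45 ± 0.44 SE, adjusted p = 0.0237), a call that ended in 5 of the 11 fits (highest adjusted p = 0.191, without Dlk1-Sca1+ replicate 2) and with all 12 arrays (adjusted p = 0.0598). Fzd4, a Frizzled receptor, read 8.31 and 8.43 in Dlk1-Sca1+ replicates 1 and 2, 9.47 in replicate 3, and 9.56, 9.52 and 9.85 in Dlk1+Sca1+ (log2 -1.28 ± 0.17 SE, adjusted p = 0.00278). That call held in all 11 fits without 1 array and ended with all 12 arrays (adjusted p = 0.161).

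Genes of the dermal condensate and papilla, the fibroblasts that instruct the hair follicle, gave 4 rises (Trps1, Rspo3, Crabp1, Wif1) and 1 fall (Fgf7) among 28 measured, with a median of 0.37. All 12 arrays together gave 1 rise and 1 fall, and 2 genes rose without either Dlk1-Sca1+ replicate 1 or replicate 2. All 4 that rose also belong to the lists above. Fgf7, a growth factor for keratinocytes, read 8.26 and 7.42 in Dlk1-Sca1+ replicates 1 and 2, 8.55 in replicate 3, and 9.25, 9.56 and 9.46 in Dlk1+Sca1+ (log2 -1.59 ± 0.23 SE, adjusted p = 0.00469), with a call lost without Dlk1-Sca1+ replicate 2 (adjusted p = 0.0616). Bmp4 (log2 1.28 ± 0.38 SE, adjusted p = 0.175) and Sox18 (log2 1.27 ± 0.38 SE, adjusted p = 0.173) did not pass.

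Of the 28 measured genes of the cell cycle list 10 rose and none fell, and all 28 log2 differences were positive, with a median of 0.80. The 10 called were Bub1, Mki67, Top2a, Cenpf, Kif11, Cenpe, Kif23, Bub1b, Birc5 and Ccnb2. Bub1, a kinase of the spindle checkpoint, read 7.89 and 7.70 in Dlk1-Sca1+ replicates 1 and 2, 6.65 in replicate 3, and 6.13, 6.14 and 6.38 in Dlk1+Sca1+ (log2 1.58 ± 0.18 SE, adjusted p = 0.000886). Mki67, the gene of the proliferation antigen Ki-67, read 9.25 and 9.45 in Dlk1-Sca1+ replicates 1 and 2, 8.54 in replicate 3, and 7.95, 8.25 and 8.38 in Dlk1+Sca1+ (log2 1.16 ± 0.16 SE, adjusted p = 0.00372). For both genes replicate 3 stood just above the highest Dlk1+Sca1+ array. Cks2, a subunit of cyclin-dependent kinases outside the list, rose 4.68-fold (adjusted p = 0.000179) and Ndc80, an outer kinetochore protein, 4.29-fold (adjusted p = 0.00972). With all 12 arrays Cks2 was at log2 1.64 and not called (adjusted p = 0.0963).

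The size of the shift was steadier than the calls. Over all 12 arrays the median of the cell cycle list was 0.63 and 0 members were called, and without Dlk1-Sca1+ replicates 1 and 2 in turn the medians were 0.81 and 0.77 with 2 and 1 called. Bub1 held in all 11 fits without 1 array and ended with all 12 (adjusted p = 0.0717). Mki67 was lost without Dlk1-Sca1+ replicate 2 (adjusted p = 0.0616), Ndc80 without Dlk1-Sca1+ replicate 1 (adjusted p = 0.125), and both with all 12 arrays (adjusted p = 0.0852 and 0.246). Top2a, the topoisomerase of dividing cells, rose 2.35-fold (adjusted p = 0.0105), a call lost without Dlk1-Sca1+ replicate 1 (adjusted p = 0.0561), without replicate 2 (adjusted p = 0.125) and with all 12 arrays (adjusted p = 0.157).

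Genes expressed late in the cell cycle often carry in their proximal promoters a cell cycle genes homology region and CCAAT boxes, the sites of the MuvB and NF-Y complexes. The RefSeq promoters (GRCm38.p6) of all 10 called members were matched by symbol. The 120 bases before the start given in the promoter record were searched on both strands. The letters sought were TTTGAA, of the homology region, and CCAAT. The homology region letters were found in 3 of 10, against 7.24% of 27025 promoters, and CCAAT in 8 of 10, against 22.1%. Both motifs were found in 2 of 10, Top2a and Kif11, against 1.55%. These are letter matches, not measured binding. The windows of 4 members are shown for these matches, 5′ to 3′ on the strand of the gene, with both motifs and their reverse complements in capitals. No match of one motif overlapped a match of the other in them.
Top2a, chr11:99024190-99024309, minus strand: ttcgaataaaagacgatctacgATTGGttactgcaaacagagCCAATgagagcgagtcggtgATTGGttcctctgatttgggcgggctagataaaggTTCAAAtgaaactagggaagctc
Kif11, chr19:37376262-37376381, plus strand: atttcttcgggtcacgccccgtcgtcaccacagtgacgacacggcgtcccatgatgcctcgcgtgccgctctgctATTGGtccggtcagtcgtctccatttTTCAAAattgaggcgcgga
Bub1, chr2:127831860-127831979, minus strand: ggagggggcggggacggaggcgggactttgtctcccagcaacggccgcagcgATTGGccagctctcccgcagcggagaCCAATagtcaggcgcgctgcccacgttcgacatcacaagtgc
Mki67, chr7:135716380-135716499, minus strand: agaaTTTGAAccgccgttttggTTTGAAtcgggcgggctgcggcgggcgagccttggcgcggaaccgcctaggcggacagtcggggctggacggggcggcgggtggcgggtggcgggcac
Top2a and Kif11 hold 1 TTTGAA match toward the 3′ end of the window, read on the other strand. The pair of matches in Mki67 lies at the 5′ end of its window, and Bub1 holds CCAAT matches alone. The mapped gene spans of Mki67 and Top2a end at 135716450 and 99024199, inside their windows. The windows therefore run in part into these genes, and distances from the start depend on the start site used.

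**Figure D3:**
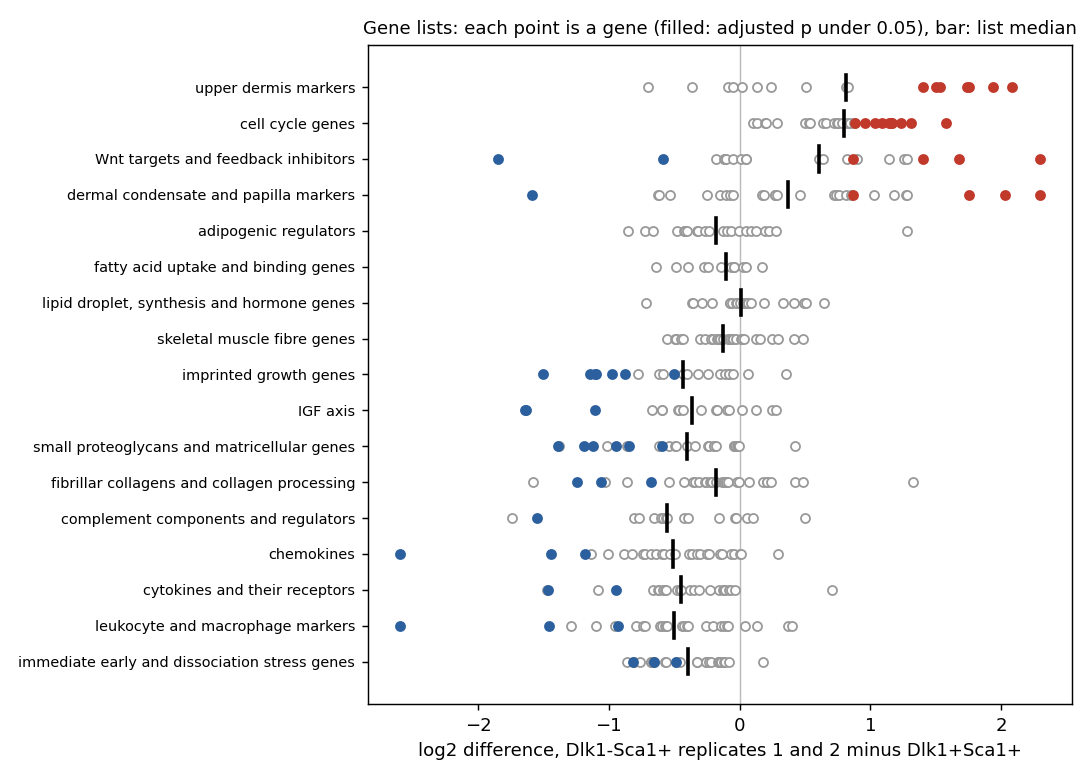
Log2 difference (Dlk1-Sca1+ replicates 1 and 2 minus Dlk1+Sca1+, x axis) of each measured gene of 17 lists (y axis), filled where the adjusted p was under 0.05, with a black bar at the list median. The upper dermis and cell cycle medians sit at 0.81 and 0.80, the adipocyte lists near 0, and the imprinted, matricellular, complement and chemokine medians between -0.40 and -0.56.

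Imprinted growth genes, which are expressed from 1 parental allele and form a network that is active in the fetus and newborn, fell in part. Dlk1 belongs to this class but was gated on and is not in the list. Of 21 measured, 7 fell (Igf2, Plagl1, Mest, Slc38a4, Cdkn1c, Zdbf2, Rian), none rose, 19 of 21 lay below 0 and the median was -0.43. With all 12 arrays 3 fell and the median was -0.39, and without Dlk1-Sca1+ replicates 1 and 2 in turn 0 and 3 fell with medians of -0.44 and -0.53. Rian is transcribed from the same imprinted locus as Dlk1, from the other allele, and dropped by 0.50 log2 units (adjusted p = 0.0409).

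Igf2, the fetal insulin-like growth factor, read 9.49 and 9.65 in Dlk1-Sca1+ replicates 1 and 2, 10.03 in replicate 3, and 10.66, 10.52 and 10.84 in Dlk1+Sca1+ (log2 -1.10 ± 0.16 SE, adjusted p = 0.0043). All 3 Dlk1-Sca1+ arrays were below all Dlk1+Sca1+ arrays, and the call held with all 12 arrays (adjusted p = 0.0202) but not without Dlk1-Sca1+ replicate 1 (adjusted p = 0.0693). Mest, a hydrolase-like protein expressed in growing mesoderm and fat, read 8.58 and 8.77 in Dlk1-Sca1+ replicates 1 and 2, 9.35 in replicate 3, and 10.36, 10.05 and 10.12 in Dlk1+Sca1+ (log2 -1.50 ± 0.25 SE, adjusted p = 0.0105). Its call was lost without Dlk1-Sca1+ replicate 1 (adjusted p = 0.115) or replicate 2 (adjusted p = 0.0661). Plagl1, a zinc finger transcription factor that regulates other imprinted genes, fell 1.83-fold (adjusted p = 0.00814), a call lost without Dlk1-Sca1+ replicate 1 (adjusted p = 0.12) and held with all 12 arrays (adjusted p = 0.0202).

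The IGF axis as a whole gave 3 falls and no rise among 18 measured, and 2 falls with all 12 arrays. Besides Igf2 these were Pappa2, a protease that releases IGF from its binding proteins, at 3.12-fold lower (adjusted p = 0.0119), and Igfbp6, a binding protein with preference for IGF2, at 3.11-fold lower (adjusted p = 0.0154). Igfbp6 read 6.40 and 6.47 in Dlk1-Sca1+ replicates 1 and 2 but 8.02 in replicate 3, within the 7.96 to 8.27 of Dlk1+Sca1+, and the call ended with all 12 arrays (adjusted p = 0.32). The Pappa2 call was lost without Dlk1-Sca1+ replicate 1 (adjusted p = 0.138). Igfbp6 was also lost without Dlk1+Sca1+ replicate 1 (adjusted p = 0.0565), Dlk1-Sca1+ replicate 1 (adjusted p = 0.123) or replicate 2 (adjusted p = 0.104).

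The largest falls among genes of growth and differentiation were spread over several families. Ptn, the heparin-binding growth factor pleiotrophin, fell to 8.06 and 8.0 in Dlk1-Sca1+ replicates 1 and 2 and 9.36 in replicate 3, against 10.29, 10.36 and 10.42 in Dlk1+Sca1+ (log2 -2.33 ± 0.27 SE, adjusted p = 0.0013). Adam23, a membrane protein of the disintegrin family, read 6.14 and 6.33 in Dlk1-Sca1+ replicates 1 and 2, 7.33 in replicate 3, and 8.49, 8.41 and 8.85 in Dlk1+Sca1+ (log2 -2.35 ± 0.24 SE, adjusted p = 0.000299). Both passed under every alternative, and all 3 Dlk1-Sca1+ arrays were below all Dlk1+Sca1+ arrays. Cdr1 read 5.23 and 5.48 in Dlk1-Sca1+ replicates 1 and 2 but 7.54 in replicate 3, against 7.87, 7.57 and 7.71 in Dlk1+Sca1+ (log2 -2.36 ± 0.18 SE, adjusted p = 6.06e-05). Replicate 3 was here at the edge of the Dlk1+Sca1+ range, and with all 12 arrays the call ended (adjusted p = 0.161).

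Esr1, the oestrogen receptor alpha, fell 3.48-fold (adjusted p = 0.00174) and held in all 11 fits without 1 array, though not with all 12 (adjusted p = 0.0717). Angptl1, an angiopoietin-like secreted protein, fell 4.47-fold (adjusted p = 0.00276), a call lost without Dlk1-Sca1+ replicate 1 (adjusted p = 0.0528). Nrk, a kinase of the germinal centre family, fell 4.42-fold (adjusted p = 0.0086), also lost without Dlk1-Sca1+ replicate 1 (adjusted p = 0.109). Rtl3, a gene derived from a retrotransposon, fell 4.46-fold (adjusted p = 0.000657) and was not called with all 12 arrays (adjusted p = 0.127). Pi15, a secreted protease inhibitor-like protein, fell 5.5-fold (adjusted p = 0.0218) and Cilp, a cartilage matrix protein, 4.13-fold (adjusted p = 0.0236). These last calls each ended in 5 of the 11 fits without 1 array (highest adjusted p = 0.15 for Pi15, without Dlk1-Sca1+ replicate 1, and 0.175 for Cilp, without Dlk1-Sca1+ replicate 2).

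Matrix genes fell in part. Of 27 small proteoglycan and matricellular genes 6 fell (Tnxb, Aspn, Ccn3, Thbs1, Thbs3, Ogn), none rose, 26 of 27 lay below 0 and the median was -0.40. Over all genes 0.537% were called lower, 0.649% were called higher, and 11511 of 22180 lay below 0. Fibrillar collagens and their processing enzymes gave 3 falls of 33 (Pcolce, Lox, Col14a1) and elastic fibre genes 2 of 17 (Eln, Ltbp2), with no rise in either, while basement membrane genes gave 2 rises of 27 (Col7a1, Col4a5) and no fall. None of the matrix calls but that of Col7a1 held without Dlk1-Sca1+ replicate 1. With all 12 arrays 3 matricellular, 2 collagen and 2 elastic fibre genes fell, and 0 basement membrane genes rose.

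Tnxb, a tenascin of loose connective tissue, read 8.85 and 9.18 in Dlk1-Sca1+ replicates 1 and 2, 9.79 in replicate 3, and 10.12, 10.16 and 10.13 in Dlk1+Sca1+ (log2 -1.12 ± 0.18 SE, adjusted p = 0.0105), a call lost without Dlk1-Sca1+ replicate 1 (adjusted p = 0.131) and with all 12 arrays (adjusted p = 0.112). Eln, the gene of elastin, read 9.42 and 9.38 in Dlk1-Sca1+ replicates 1 and 2, 9.59 in replicate 3, and 10.68, 10.85 and 10.76 in Dlk1+Sca1+ (log2 -1.37 ± 0.27 SE, adjusted p = 0.0332). Lox, the enzyme that cross-links elastin and collagen, read 10.32 and 10.42 in Dlk1-Sca1+ replicates 1 and 2, 10.35 in replicate 3, and 11.47, 11.46 and 11.36 in Dlk1+Sca1+ (log2 -1.06 ± 0.20 SE, adjusted p = 0.0209). In Eln and Lox replicate 3 was level with the other Dlk1-Sca1+ arrays, and with all 12 arrays both passed (adjusted p = 0.0326 and 0.017). Their calls ended in 6 and 5 of the 11 fits without 1 array (highest adjusted p = 0.215, when replicate 2 of Dlk1-Sca1+ was left out, and 0.155, when replicate 1 was). Col7a1, the anchoring fibril collagen at the junction with the epidermis, read 8.17 and 8.44 in Dlk1-Sca1+ replicates 1 and 2, 7.53 in replicate 3, and 7.21, 7.29 and 6.79 in Dlk1+Sca1+ (log2 1.21 ± 0.18 SE, adjusted p = 0.0046), a call lost without Dlk1-Sca1+ replicate 2 (adjusted p = 0.0712) and with all 12 arrays (adjusted p = 0.0719).

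A few secreted immune factors fell in Dlk1-Sca1+. Chemokines gave 3 falls of 28 (Pf4, Ccl3, Cxcl10) with a median of -0.51 and 25 of 28 below 0, cytokines and their receptors 2 of 26 (Lifr, Il6) with a median of -0.45, and complement genes 1 of 17 (Serping1) with a median of -0.56. No member of these lists rose, and with all 12 arrays 1 chemokine, 0 cytokine and 1 complement genes fell. Serping1, the inhibitor of complement C1, read 8.63 and 9.07 in Dlk1-Sca1+ replicates 1 and 2, 9.52 in replicate 3, and 10.39, 10.29 and 10.52 in Dlk1+Sca1+ (log2 -1.55 ± 0.20 SE, adjusted p = 0.00174), and passed under every alternative. Il6, an inflammatory cytokine, read 7.26 and 7.75 in Dlk1-Sca1+ replicates 1 and 2, 8.29 in replicate 3, and 8.78, 9.27 and 8.88 in Dlk1+Sca1+ (log2 -1.47 ± 0.29 SE, adjusted p = 0.027). The Il6 call ended in 5 of the 11 fits (highest adjusted p = 0.233, without Dlk1-Sca1+ replicate 1) and with all 12 arrays (adjusted p = 0.101). Cxcl10, an attractant of T cells, fell 2.72-fold (adjusted p = 0.0384), a call that ended in 7 of the 11 fits (highest adjusted p = 0.242, without Dlk1-Sca1+ replicate 1) and with all 12 arrays (adjusted p = 0.0681).

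Some markers of leukocytes and macrophages were also lower in Dlk1-Sca1+. Pf4, a chemokine of platelets that resident macrophages also express, had the largest fall of the named genes: 3.89 and 3.70 in Dlk1-Sca1+ replicates 1 and 2, 4.40 in replicate 3, and 6.24, 6.57 and 6.37 in Dlk1+Sca1+ (log2 -2.60 ± 0.25 SE, adjusted p = 0.000258). Mrc1, the mannose receptor of macrophages, read 4.64 and 4.82 in Dlk1-Sca1+ replicates 1 and 2, 4.75 in replicate 3, and 6.0, 6.13 and 6.42 in Dlk1+Sca1+ (log2 -1.46 ± 0.17 SE, adjusted p = 0.00117). CD26+ read 3.58 to 4.09 for Pf4 and Dlk1+Sca1- 3.78 to 4.68, so Dlk1+Sca1+ was the population that stood out. Outside Dlk1+Sca1+, Pf4 lay below the array medians of 5.38 to 5.51. Mrc1 passed under every alternative. Pf4 passed under all but the fit without the 40% dimmest genes, where it was left out and not tested. Lilrb4a, an inhibitory receptor of myeloid cells with a near-identical neighbouring copy, fell 4.49-fold (adjusted p = 0.0115), a call lost without Dlk1-Sca1+ replicate 1 (adjusted p = 0.0859) or replicate 2 (adjusted p = 0.111). Over the 28 leukocyte and macrophage markers 3 fell (Pf4, Mrc1, Fcer1g), none rose and the median was -0.50, with 2 falls when all 12 arrays were fitted. Their mean log2 value per array was 4.71 to 4.73 in Dlk1-Sca1+ replicates 1 and 2, 4.86 in replicate 3, and 5.18 to 5.34 in Dlk1+Sca1+. Fewer cells of a type and less RNA per cell cannot be told apart in such samples, and the part of these cells in the falls of secreted factors was not tested.

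Other cell types gave few calls. With 1.19% of all genes called, a short list without a call is near the overall share. None of 31 skeletal muscle fibre genes, 20 endothelial, 16 keratinocyte, 14 Schwann cell and melanocyte or 9 mast cell markers passed, and the mean of the muscle fibre genes was 5.13 to 5.15 in Dlk1-Sca1+ replicates 1 and 2, 5.20 in replicate 3, and 5.21 to 5.29 in Dlk1+Sca1+. Of 18 myoblast genes Chodl and Fgfr4 rose and Vcam1 fell, 1 in each direction with all 12 arrays. Of 14 pericyte and smooth muscle markers Tagln rose (log2 0.94, adjusted p = 0.0418) and Abcc9 fell (log2 -1.52, adjusted p = 0.0484). With all 12 arrays Tagln was called (adjusted p = 0.0259) and Abcc9 was not (adjusted p = 0.0899). Their calls ended in 7 and 8 of the 11 fits without 1 array. Immediate early and dissociation stress genes were lower on the whole: 29 of 30 lay below 0 with a median of -0.39, and 3 fell (Hspa1b, Atf3, Hsph1), against 1 in the fit of all 12 arrays. Their mean was 9.12 to 9.40 in Dlk1-Sca1+ replicates 1 and 2, 9.43 in replicate 3, and 9.55 to 9.83 in Dlk1+Sca1+, and the part of this shift in the other results was not tested. The Hspa1b call ended in 4 of the 11 fits without 1 array (highest adjusted p = 0.161, without Dlk1-Sca1+ replicate 2) and with all 12 arrays (adjusted p = 0.0843), and Hspa1b has a near-identical copy, Hspa1a.

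The adipocyte lists held no called gene, where 1.19% of all genes were called. Lists of this size without a call are near that share. None of 22 adipogenic regulators, 12 genes of fatty acid uptake and binding, or 22 genes of lipid droplets, lipid synthesis and adipocyte hormones passed the test, with medians of -0.18, -0.11 and 0.01. Fabp4 read 11.56 and 11.45 in Dlk1-Sca1+ replicates 1 and 2, 12.22 in replicate 3, and 11.59, 11.31 and 11.75 in Dlk1+Sca1+. Its difference was -0.04 ± 0.89 SE (adjusted p = 0.995), with a 95% interval from -2.07 to 1.99. Pparg read 8.20 and 8.77 in Dlk1-Sca1+ replicates 1 and 2, 9.05 in replicate 3, and 8.83, 8.56 and 8.35 in Dlk1+Sca1+, a difference of -0.09 ± 0.30 SE (adjusted p = 0.956, 95% interval -0.74 to 0.56). The arrays overlapped for both genes. The shared estimate of spread includes CD26+, where Fabp4 ranged between 5.79 and 8.63, and Dlk1+Sca1-, where it ranged between 7.20 and 9.94.

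Cd36 read 8.78 and 8.85 in Dlk1-Sca1+ replicates 1 and 2, 10.18 in replicate 3, and 9.47, 8.89 and 9.54 in Dlk1+Sca1+ (log2 -0.49 ± 0.65 SE, adjusted p = 0.872). Lpl, the lipase that releases fatty acids from lipoproteins, read 10.85 and 10.57 in Dlk1-Sca1+ replicates 1 and 2, 11.36 in replicate 3, and 11.40, 11.10 and 11.55 in Dlk1+Sca1+ (log2 -0.64 ± 0.35 SE, adjusted p = 0.57). Among inhibitors of adipogenesis 1 of 19 fell, Zfp521, a zinc finger protein that holds back commitment to fat (2.26-fold, adjusted p = 0.0476), and that call ended in 9 of the 11 fits without 1 array (highest adjusted p = 0.318, without Dlk1-Sca1+ replicate 2) and with all 12 arrays (adjusted p = 0.26). Replicate 3 had the highest level of the 6 Sca1+ arrays for 26 of the 56 genes of the 3 adipocyte lists, Fabp4, Pparg, Cd36 and Adipoq among them, and for 16.6% of all genes. It had the lowest level for 3 of the 56, and for Scd1, a fatty acid desaturase, it read 6.27, against 6.44 and 6.29 in the other Dlk1-Sca1+ arrays and 7.15, 7.0 and 7.11 in Dlk1+Sca1+. For Adipoq, the gene of the hormone adiponectin, it read 7.86, against 6.24 and 6.20 in the other Dlk1-Sca1+ arrays and 5.74, 6.0 and 5.93 in Dlk1+Sca1+.

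**Figure D4:**
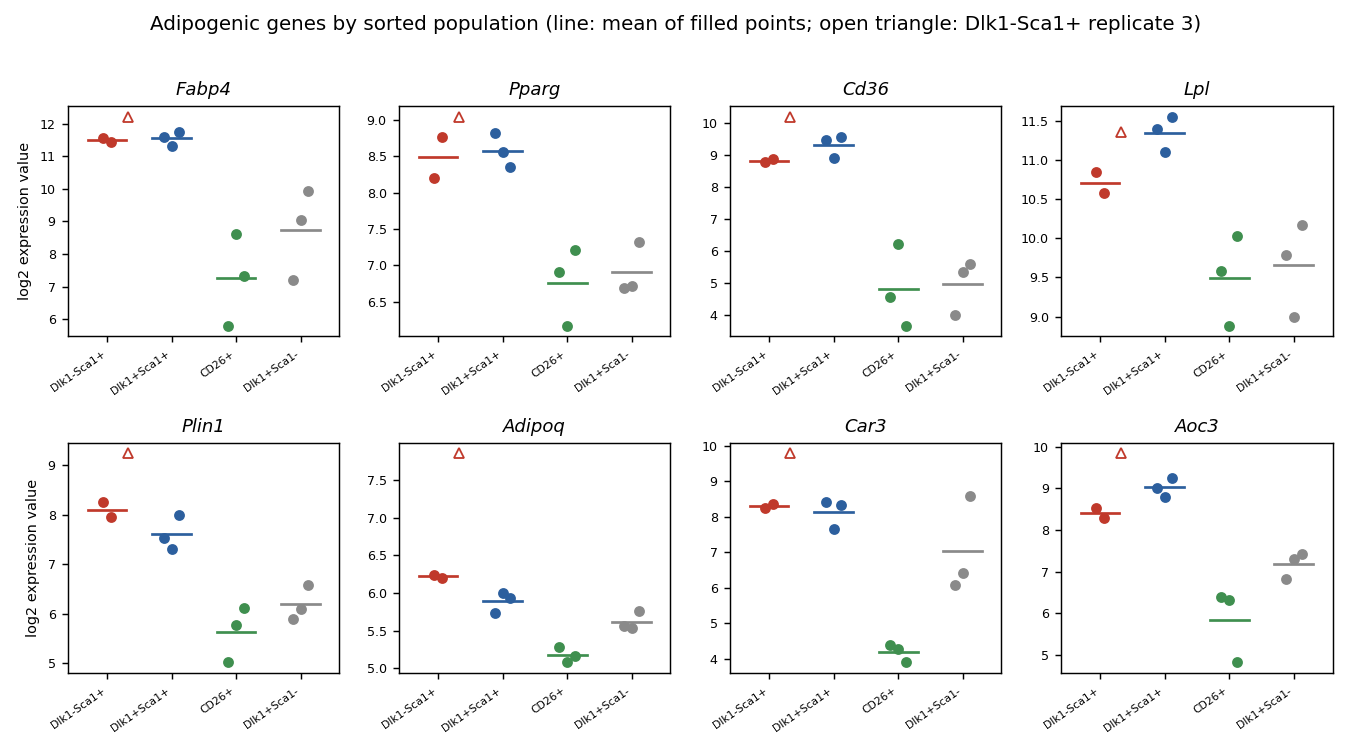
Log2 expression value (y axis) on each array for 8 adipogenic genes by sorted population (x axis), with filled points for the arrays fitted, a line at their mean and an open triangle for Dlk1-Sca1+ replicate 3. Both Sca1+ populations lie above CD26+ in every panel, and for Fabp4 the Dlk1-Sca1+ arrays at 11.56 and 11.45 lie among the Dlk1+Sca1+ arrays.

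Set against CD26+ cells, which also carry little Dlk1, Dlk1-Sca1+ cells gave fewer calls: 19 genes (0.0857%), 17 of them higher in Dlk1-Sca1+. At an unadjusted limma p under 0.05 there were 1224 genes, against 2429 between the Sca1+ populations. Genes not called are not thereby shown to be equal in Dlk1-Sca1+ and CD26+. This comparison uses the same Dlk1-Sca1+ arrays as the one above. Its genes were named after their values were seen, and 2 of the 56 adipocyte list genes were among them, Plin1 and Adipoq. The 19 included Plin1, the coat protein of lipid droplets (5.54-fold), Adipoq (2.07-fold), Car3, a carbonic anhydrase abundant in fat (17.2-fold), Aoc3, an amine oxidase of adipocytes (5.91-fold), and Trarg1, a regulator of glucose transporter traffic (log2 1.36 ± 0.21 SE). Plin1 read 8.26 and 7.95 in Dlk1-Sca1+ replicates 1 and 2, 9.25 in replicate 3, and 5.02, 5.77 and 6.12 in CD26+ (adjusted p = 0.00974). Car3 read 8.23 and 8.34 in Dlk1-Sca1+ replicates 1 and 2, 9.79 in replicate 3, and 4.39, 4.27 and 3.90 in CD26+ (adjusted p = 0.0344). Over the 11 fits without 1 array Plin1 was called in 10 (adjusted p = 0.108 without Dlk1-Sca1+ replicate 1), Car3 in 3, Aoc3 in 4, Trarg1 in 3 and Adipoq in 1 (highest adjusted p of 0.213, 0.242, 0.242 and 0.242, each without Dlk1-Sca1+ replicate 1). With all 12 arrays each but Adipoq was called (adjusted p = 0.109 for Adipoq).

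Among the others of the 19, Akr1c18, a steroid dehydrogenase (7.55-fold, adjusted p = 0.000584), Bmper, a modulator of BMP signals (4.35-fold, adjusted p = 0.00253), and Cxcl12, a chemokine that retains haematopoietic cells (log2 1.49 ± 0.16 SE, adjusted p = 0.00253), were higher in Dlk1-Sca1+ than in CD26+ in all 11 fits without 1 array. Lepr, the leptin receptor, was 2.48-fold higher (adjusted p = 0.00826), a call lost without Dlk1-Sca1+ replicate 1 (adjusted p = 0.0904). Pi16, a marker of adventitial and fascial progenitors, was 3.08-fold higher (adjusted p = 0.0264) and was called in 6 of the 11 fits (highest adjusted p = 0.205, without Dlk1-Sca1+ replicate 1). Fabp4 was 19.1-fold higher on average, with CD26+ at 5.79, 8.63 and 7.33, and did not pass (adjusted p = 0.362), nor did Cd36, at 15.9-fold (adjusted p = 0.0864), or Pparg, at 3.30-fold (adjusted p = 0.0737).

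Of the genes that separated the Sca1+ populations, some had levels in Dlk1-Sca1+ near those of CD26+ and others did not. Against CD26+, Entpd1 differed by -0.33 ± 0.24 SE (95% interval -0.83 to 0.18) and Mef2c by -0.10 (adjusted p = 0.998). For Chodl the difference from CD26+ was log2 -1.0 and did not pass (adjusted p = 0.147). Fzd4 (log2 1.18, adjusted p = 0.0255) and Gfpt2, an enzyme of hexosamine synthesis (log2 1.97, adjusted p = 0.00974), were higher in Dlk1-Sca1+ than in CD26+, and Abi3bp, a matrix protein, was lower (log2 -0.80, adjusted p = 0.0486). Dlk1-Sca1+ replicates 1 and 2 were on average 0.28 log2 units from CD26+ across all genes (root mean square of the mean differences), 0.352 from Dlk1+Sca1+ and 0.349 from Dlk1+Sca1-. The 2 replicates themselves were 0.411 apart as single arrays, a distance that is not on the scale of those between means.

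CD26+ and Dlk1+Sca1- cells were both gated as Sca1-negative, and the study calls them papillary and reticular. CD26+ cells were gated on CD26 and not on Dlk1, so low Dlk1 and papillary identity cannot be told apart here. The contrast of CD26+ against Dlk1+Sca1- shares no array with the contrast in Sca1+ cells. It called 243 genes (1.1%). Of the 263 genes called in Sca1+ cells, 80 were called there in the same direction and 1 in the opposite one, 30.8% of the 263 and 33.3% of the 243. The sign was the same for 233 of 263 genes (88.6%), against 60.6% of all genes. Across the 263 genes Pearson's r between the log2 differences was 0.797. It was 0.374 over all genes, 0.33 over the 144 called higher and 0.572 over the 119 called lower. The 263 were chosen for differences of either sign in the first contrast, and genes are not independent, so these values are descriptions. Dlk1 itself had a log2 difference of -1.93 in Sca1+ cells and of -1.37 without Sca1. The Sca1+ pair was gated on Dlk1 and Dlk1+Sca1- cells were gated as Dlk1+, so both values are a check of the gates.

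**Figure D5:**
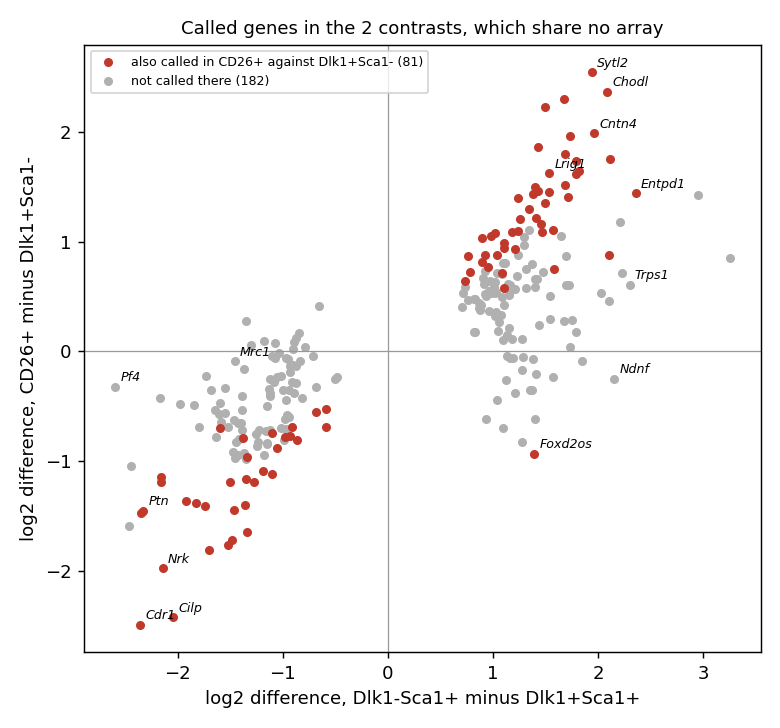
The 263 genes called in Sca1+ cells, with the log2 difference Dlk1-Sca1+ minus Dlk1+Sca1+ on the x axis and CD26+ minus Dlk1+Sca1- on the y axis. Red points, 81 in number, were also called in the second contrast, and 233 of the 263 points lie below 0 or above 0 on both axes.

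Of the 7 upper dermis markers called in Sca1+ cells, 5 were also higher in CD26+ than in Dlk1+Sca1-, and Apcdd1 (adjusted p = 0.215) and Crabp1 (adjusted p = 0.753) did not pass there. CD26+ is the papillary sort of the series that was known when the list was drawn up. The 5 are therefore a description and not a separate test. Chodl differed by log2 2.37 (adjusted p = 5.82e-05), Sytl2 by 2.55 (adjusted p = 0.00024) and Lrig1 by 1.63 (adjusted p = 0.000788), and outside that list Cntn4 differed by 1.99 (adjusted p = 0.000985) and Entpd1 by 1.44 (adjusted p = 0.00528) between CD26+ and Dlk1+Sca1-. Igf2 (log2 -0.75, adjusted p = 0.0228), Mest (log2 -1.19, adjusted p = 0.0197), Ptn (log2 -1.45, adjusted p = 0.0129) and Cdr1 (log2 -2.49, adjusted p = 2.38e-05) were lower there as well. Other genes had their difference in the Sca1+ pair without passing in the other. Trps1 was 9.64, 9.35 and 9.51 in CD26+ and 9.15, 8.86 and 8.66 in Dlk1+Sca1- (log2 0.61, adjusted p = 0.148), and Ndnf 8.64, 8.30 and 8.16 in CD26+ and 8.91, 9.03 and 7.92 in Dlk1+Sca1- (log2 -0.25, adjusted p = 0.752). Rspo3 did not pass there either (log2 0.53, adjusted p = 0.273), and for all 3 genes Dlk1+Sca1+ had the lowest mean of the 4 populations. Pf4 (log2 -0.32, adjusted p = 0.612) and Mrc1 (log2 -0.09, adjusted p = 0.859) did not pass there.

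The difference between the contrasts was itself tested, and 1 gene passed (0.00451%), Foxd2os, with 1309 at an unadjusted p under 0.05. The difference between contrasts did not pass for Pf4 (adjusted p = 0.0625), Trps1 (adjusted p = 0.0681), Ndnf (adjusted p = 0.0828) or Entpd1 (adjusted p = 0.691), so an effect confined to Sca1+ cells was not shown for these genes.

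Replicate 3 lay between the populations for most genes that separated them. On a scale with the Dlk1+Sca1+ mean at 0 and the mean of Dlk1-Sca1+ replicates 1 and 2 at 1, its median position over the 263 genes was 0.431, with quartiles of 0.237 and 0.617. For 188 genes it was between the arrays of both populations, for 53 it was in or beyond the range of Dlk1+Sca1+ and for 22 in or beyond that of replicates 1 and 2. It stood on the Dlk1-Sca1+ side of the Dlk1+Sca1+ mean for 240 of 263. The genes called higher had a median position of 0.368 and those called lower 0.484, while Dlk1 stood at 0.75 and Entpd1 at 0.292. These positions are a description, since the genes were chosen with replicates 1 and 2.

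Across all genes, after each gene's mean over the arrays was removed, replicate 3 had a mean r of 0.061 with Dlk1+Sca1+ and of -0.069 with Dlk1-Sca1+ replicates 1 and 2, which had an r of 0.048 with each other. The 3 Dlk1+Sca1+ arrays had means of 0.125 to 0.173 among themselves. The remaining pair of Dlk1-Sca1+ arrays thus had a lower r than the arrays of Dlk1+Sca1+. Those of Dlk1+Sca1- had means of 0.003 to 0.128 and those of CD26+ 0.212 to 0.274. With the CD26+ arrays, Dlk1-Sca1+ replicate 1 had a mean r of 0.017 and replicate 2 of 0.102, the latter above the r of the pair. This r also depends on how far a population lies from the mean of all arrays, so it does not measure likeness of replicates alone. Having only 2 Dlk1-Sca1+ arrays limits the precision of each comparison with that population.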

How the data were processed

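RNA of sorted fibroblasts was hybridised by the authors to Affymetrix Mouse Gene 2.0 ST arrays, 12 in all. The deposited values are log2 expression values per probe set. Summarisation and normalisation methods are not given in the sources used here. The submitters' processing notes name the build mm10. Array backgrounds compress differences of dim genes, and the number of arrays limits the precision.

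The platform annotation gave 1 gene symbol to 23521 of 41345 probe sets, several to 1820 and none to 16004. Probe sets with 1 symbol were used, the one with the highest mean for each of 1082 genes with several, which left 22180 genes, 21994 of them with a GRCm38.p6 position (the build of mm10). Ly6a and Fbn1 had no such probe set and are not reported.

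A model with 1 mean per population was fitted to 11 arrays, without Dlk1-Sca1+ replicate 3, with limma 3.58.1 in R 4.3.3 (statmod 1.5.0; mean trend, robust, two-sided, 7 residual degrees of freedom). Benjamini-Hochberg adjustment was applied over all genes within a contrast, and genes were called at 0.05. Differences are log2 with the standard error (SE) of the fit. Alternatives were all 12 arrays with and without array weights, only the populations compared, each array left out, replicate number as a block, no trend or robust fitting, quantile normalisation, median centring, removal of the 40% dimmest genes, the mean of a gene's probe sets and every probe set. The last was used for counts of calls only, and single genes were followed in the others. Where 1 Dlk1-Sca1+ array was left, it was assumed to vary like the other populations. The fit was tested on simulated data.

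Genes were named by rule: among called genes with separate arrays, the 15 with the largest rise and the 15 with the largest fall (predicted, small RNA, olfactory, vomeronasal and antigen receptor genes passed over), gate markers, genes the study names, and from each of 38 lists up to 4 called members or, with none called, the 2 of lowest p. Other called list members, the genes of the comparison with CD26+, and the genes chosen for figures were named after their values were seen. Members and lists were chosen with earlier results of these data known.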

Additional observations from a re-analysis of the deposited data

Results flagged for a closer look

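Foxd2os, a non-coding RNA gene beside Foxd2, was the only gene whose difference in Sca1+ cells departed from that in cells without Sca1 by a test of the difference itself, at log2 2.32 (adjusted p = 0.0317 by limma). It read 6.36 and 6.24 in Dlk1-Sca1+ replicates 1 and 2, 6.99 in replicate 3, and 5.03, 5.06 and 4.65 in Dlk1+Sca1+, so it was higher in Dlk1-Sca1+ (log2 1.39, adjusted p = 0.00574). In CD26+ it read 5.44, 5.96 and 5.63, and in Dlk1+Sca1- 6.78, 6.65 and 6.40, so there the difference ran the other way (log2 -0.93, adjusted p = 0.0302). The gene was called in this test without CD26+ replicate 2 or Dlk1+Sca1- replicate 3 and in none of the other 9 fits that left out 1 array.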

How the results depend on the processing

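Against Dlk1+Sca1+, 263 genes were called. The count was 88 with all 12 arrays and 97 with array weights added, and it ran between 83 and 351 as each array was left out. Against CD26+ (19 genes) the counts were 29 and 45, and 8 to 25 as each array was left out. For CD26+ against Dlk1+Sca1- (243 genes) they were 137 with all 12 arrays, 109 with only these populations fitted, and 61 to 265 as each array was left out. The difference between the contrasts called 1 gene, 3 with all 12 arrays, 20 with array weights, 3 after quantile normalisation, 2 without the 40% dimmest genes, and 0 to 37 as each array was left out, with 37 without Dlk1+Sca1- replicate 3. Every other setting but the replicate block kept these counts within 1.5 times. The share of calls that rose was 54.8% in the main comparison and 41.5% with only the populations compared.

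With a replicate block the main comparison called 244 genes, 201 of them among the 263, and the difference between the contrasts called 13. The labels do not say whether shared replicate numbers pair the samples, and the main fit left them unpaired. Deviations of same-numbered arrays had a median r of 0.045 (-0.046 to 0.145) over 15 pairs. For the 30 other pairs it was -0.032 (-0.14 to 0.085), so pairing was neither shown nor excluded.

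Of 78 named genes called, 21 were called in each fit without 1 array, 35 with all 12 arrays and 12 in every alternative, and none changed direction. Signs turned for 3 genes that were not called and lay near 0: Fabp4 was at 0.196 with all 12 arrays, 0.154 with array weights, 0.209 with the replicate block and -0.159 to 0.059 with 1 array left out, Pparg at 0.094, 0.009, 0.011 and -0.376 to 0.191 under the same settings, and Ivl at -0.629 to 0.033 with 1 array left out. Dlk1, which was gated on, is among the 78 and the 12, so its calls are a check of the gate. Pf4 is counted among the 12 without the fit that removed the 40% dimmest genes, which left Pf4 out. With 2 Dlk1-Sca1+ arrays, an uncalled gene is not shown to be equal.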
